A study of Mus musculus with 4 samples.

Results

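The genes described here are 36 S-phase replication genes, of 33696 genes in each expression matrix. They were taken as a list of genes known to act in DNA replication and not picked by a measured value, but with earlier results of these data known. All 36 were present in both matrices. Thymocytes sorted for CCR7, and labelled CD4+CCR7+, were profiled by droplet single-cell RNA sequencing. The protocol names a 3' kit, and which end of the transcripts the reads come from was not checked. The series asks how the DNA sensor cGAS affects transcription in these thymocytes. The Cgas KO group came from Cd4Cre Cgas fl/fl mice, in which floxed Cgas alleles meet a Cre driven by Cd4, a promoter active once thymocytes become double-positive for CD4 and CD8. The WT group came from Cd4Cre mice, so that both groups carry the Cre transgene. There was 1 expression library and 1 T cell receptor (TCR) library per genotype, and neither the age nor the number of mice behind a library is stated. No difference between genotypes therefore has a replicate check, no test between them was possible, and each interval below is a 95% interval that covers counting error only.

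Before a cell divides, origins of replication are loaded with the MCM helicase in G1, and at the start of S phase the helicase is activated and DNA polymerases copy the genome behind a sliding clamp. The genes for this machinery are switched on largely together by E2F transcription factors at entry into S phase, while genes for mitosis follow later under other promoter elements. In the thymus most division takes place before and during the passage to the double-positive stage, and thymocytes that mature after positive selection are largely resting.

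Kept barcodes had at least 2000 unique molecular identifiers (UMIs), at least 500 genes and at most 10% mitochondrial UMIs. There were 14381 of them in Cgas KO, with a median of 4507 UMIs, and 12929 in WT, with a median of 4943 UMIs. Levels are given as CPM, the UMIs of a gene per 1000000 UMIs, both summed over the barcodes named. Shares of barcodes were taken after each barcode had been thinned at random to 2000 UMIs, which left out no kept barcode. The sort labels were reflected in Ccr7 at 721 CPM in Cgas KO and 617 CPM in WT and in Cd4 at 261 CPM in Cgas KO and 256 CPM in WT. Barcodes of the Cd8 lineage, defined further on by more Cd8a and Cd8b1 than Cd4 UMIs, nevertheless made up 10.9% of kept barcodes in Cgas KO and 12.7% in WT. Haemoglobin and other erythroid genes summed to 70.3 CPM in Cgas KO and 2.11 CPM in WT. In the S1pr1+ state defined further on they summed to 227 CPM in Cgas KO and 1.89 CPM in WT, and in the other Cgas KO states to 2.24 to 5.13 CPM. Ratios between states are set against S1pr1+ barcodes, and the part of these genes in them was not tested. Cgas itself had 221 UMIs in Cgas KO and 337 in WT. This checks neither the deletion nor the labels, since the labels do not name the floxed exons and tags from an end of the transcript can lie outside them.

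The Cgas KO library stood apart in its TCR chains. Of its 12029 kept barcodes with both an alpha and a beta chain, 1166 fell into 583 pairs whose complete sets of productive contigs were identical, against 35 of 10754 WT barcodes, in 17 sets. Barcodes in these sets had a median of 3168 UMIs in Cgas KO and 2822 in WT. Both barcodes were replicating, as defined below, in 56 of the Cgas KO pairs, and 1 of the 2 in 32. The source of these sets was not tested, and results use every kept barcode, with the value for 1 barcode of each set given beside the replicating shares and the genotype counts of the 6 states. A further 276 kept barcode sequences occurred in both libraries. Doublets were not removed, and barcodes with at least 2 beta chains made up 9.58% of kept barcodes in Cgas KO and 9.0% in WT.

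E2F elements near the start site are the known common feature of such genes, so the start sites of the members were searched for them. RefSeq promoters of the GRCm38.p6 build (mm10), 250 bases before to 50 bases after the annotated start, were held for 29 of the 36 members, and none was held for Mcm4, Gins1, Gins2, Rfc2, Dscc1, Ccne2 or Tipin. The 36 genes lie on 16 chromosomes. An 8-letter word of the E2F type (TTTCCCGC, TTTCGCGC, TTTGCCGC or TTTGGCGC, on either strand, some of which overlap one another when read on both strands) was present for 12 of the 29 members, or 41.4%. The same words were found for 34.2% of 38 other replication genes, for 3.23% of 31 mitotic genes and for 2.61% of all 27025 genes with a promoter. The word TTTGAA, the core of the CHR element known from promoters of mitotic genes, ran the other way, being held by 10.3% of members, 77.4% of mitotic genes and 20.2% of all genes on either strand. CCAAT boxes, on either strand, were held by 55.2% of members, 77.4% of mitotic genes and 41.1% of all genes. A match describes these letters only and shows neither binding nor use of a site. Stretches of 30 bases around the word nearest the start are shown for 8 members that recur in the results, on the gene's own strand from 5′ to 3′ and with the words in capitals. They lie at chr8:75109349-75109378, plus strand (Mcm5), chr1:128359734-128359763, minus strand (Mcm6), chr11:98908002-98908031, plus strand (Cdc6), chrX:93632275-93632304, minus strand (Pola1), chr19:38930917-38930946, plus strand (Hells), chr17:56304117-56304146, plus strand (Uhrf1), chr2:72476137-72476166, plus strand (Cdca7) and chr4:126556990-126557019, plus strand (Clspn).
Mcm5: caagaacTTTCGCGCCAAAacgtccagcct
Mcm6: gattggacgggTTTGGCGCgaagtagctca
Cdc6: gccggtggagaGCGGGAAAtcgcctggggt
Pola1: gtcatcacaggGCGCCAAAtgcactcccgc
Hells: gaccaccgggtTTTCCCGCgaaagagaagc
Uhrf1: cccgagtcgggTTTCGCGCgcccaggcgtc
Cdca7: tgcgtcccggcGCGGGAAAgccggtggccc
Clspn: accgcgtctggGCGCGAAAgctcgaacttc
In Mcm5 2 words overlap, 1 on each strand, in the run TTTCGCGCCAAA. In the other 7 windows a single word is marked. The word nearest the start lies before it in each of the 8 genes except Clspn, where it begins 21 bases after it. Of all 12 members with a word, 7 had it before the start, and the members not shown had it after. Uhrf1 has 2 annotated promoters, and its word was found in 1 of them.

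The first question was whether the 36 genes are detected in the same barcodes. Most kept barcodes held few of them. After thinning, 28.5% of Cgas KO and 29.6% of WT barcodes had a UMI of none of the 36, and the mean was 1.85 members per barcode in Cgas KO and 1.75 in WT. A long tail of barcodes held many at once, up to 25 in both libraries. Free RNA, read from barcodes with at least 20 and fewer than 200 UMIs, held the 36 genes at a summed 1627 CPM in Cgas KO and 1672 CPM in WT, close to their 1479 CPM in kept Cgas KO and 1379 CPM in kept WT barcodes. A barcode filled with 2000 UMIs of free RNA alone would show 5 or more members in 18% of cases in Cgas KO and 19.2% in WT, but 8 or more in only 0.765% in Cgas KO and 0.853% in WT. Free RNA alone would leave 3.86% of Cgas KO and 3.53% of WT barcodes without any member, far fewer than were seen. The part of free RNA in barcodes with 5 to 7 members was not tested. The genotype comparisons of shares over all kept barcodes and in the Rag1+ state, defined further on, are therefore given at 8 or more members too. Shares by state and the other results on such barcodes rest on 5 or more members unless stated. No cell type that should lack replication genes was defined in this sort, so free RNA is the background used.

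**Figure D1:**
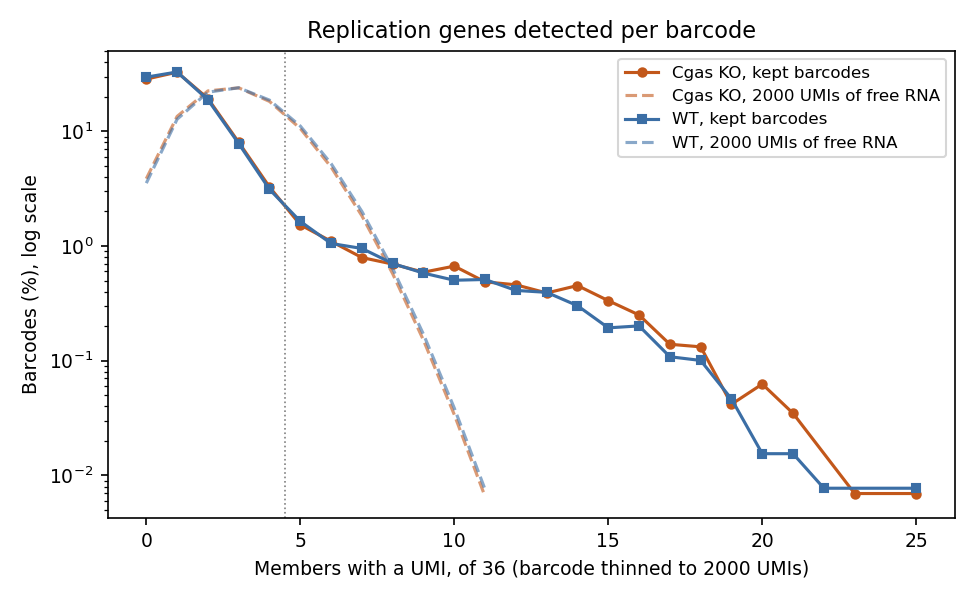
Number of the 36 replication genes with a UMI per kept barcode after thinning to 2000 UMIs (horizontal axis) against the share of barcodes in percent on a log scale, for Cgas KO and WT (solid lines with points), with the distribution that 2000 UMIs of each library's free RNA would give (dashed lines). Both libraries peak at 1 member, fall to 1.53% (Cgas KO) and 1.64% (WT) at 5 members, right of the dotted line, and carry a tail up to 25 members, beyond the free RNA curves.

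Pairs of members were found together more often than their separate shares predict. Of 630 pairs, 535 in Cgas KO and 496 in WT had at least 5 barcodes expected by the product of both shares. Observed over expected had a median of 3.12 in Cgas KO and 2.94 in WT, and no pair lay below 1 in either library. At least 2-fold excess was seen in 465 Cgas KO pairs and 412 WT pairs. The pair with the highest excess was the same in both libraries, Rrm2 with Clspn, found together in 196 Cgas KO barcodes where 14 were expected and in 113 WT barcodes where 7.57 were expected. The lowest were Pcna with Rfc2 in Cgas KO, 265 barcodes where 198 were expected, and Mcm4 with Rfc2 in WT, 190 where 135 were expected. Member by member over its usable pairs, Rfc2 had the lowest median excess, 1.99 in Cgas KO and 1.86 in WT. Cdc6 had the highest in Cgas KO (5.09, against 4.22 in WT) and Rrm2 the highest in WT (4.88 in Cgas KO, 4.66 in WT), with Clspn close by at 4.97 in Cgas KO and 4.60 in WT. After leaving 1 barcode in each identical TCR set, the medians over pairs were 3.11 in Cgas KO and 2.94 in WT. All barcodes have the same depth after thinning, and the pairs share barcodes and members, so the excesses are a description.

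A barcode with 5 or more members after thinning is called replicating here. This was the case for 1175 of 14381 Cgas KO barcodes (8.17%, 7.73 to 8.63%) and 1001 of 12929 WT barcodes (7.74%, 7.29 to 8.22%). The ratio of these shares, Cgas KO over WT, was 1.06 (0.973 to 1.14), an interval that includes 1. Counting 1 barcode of each identical TCR set, the shares were 8.02% in Cgas KO and 7.74% in WT (ratio 1.04, 0.954 to 1.12). At the stricter count of 8 or more members, where free RNA alone gives under 1%, the shares were 4.75% in Cgas KO and 4.1% in WT (ratio 1.16, 1.04 to 1.29). Without thinning the ratio was 0.93 (0.891 to 0.970).

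Replicating barcodes held mitotic genes more often than other barcodes. Of them, 46.5% in Cgas KO and 41.6% in WT also had at least 3 of 34 mitotic genes, against 2.05% of the other Cgas KO and 1.6% of the other WT barcodes. A barcode filled with 2000 UMIs of free RNA alone would show at least 3 in 44.6% of cases in Cgas KO and 39.7% in WT. The part of free RNA in these shares was not tested. At exactly 5 members the mitotic share was 20% in Cgas KO and 15.1% in WT. Among barcodes with 12 or more members the mitotic share was 73.5% in Cgas KO and 75.1% in WT. The median depth of replicating barcodes before thinning was 8418 UMIs in Cgas KO and 9358 in WT, compared with 4362 in other Cgas KO and 4793 in other WT barcodes. Doublets can also raise depth, and 10.9% of replicating against 9.46% of other Cgas KO barcodes had at least 2 beta chains, as did 9.29% of replicating against 8.98% of other WT barcodes.

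Members differed in how closely they were tied to replicating barcodes. For this, each gene was set against a group of replicating barcodes defined by the other 35 members. Every member was higher in replicating than in other barcodes, by 3.73 to 65.2-fold in Cgas KO and 3.66 to 46.7-fold in WT, with medians of 9.8 in Cgas KO and 10.5 in WT. The lowest was Rfc2, a subunit of the clamp loader (3.73-fold in Cgas KO and 3.66-fold in WT), followed by Mcm4 (4.13-fold in Cgas KO and 4.39-fold in WT). The highest was Cdc6, which loads the MCM helicase onto origins (65.2-fold in Cgas KO and 46.7-fold in WT). Mcm10, which joins the helicase when origins fire, was next in Cgas KO (39.8-fold in Cgas KO and 36.4-fold in WT), then Clspn, the checkpoint mediator claspin (37.7-fold in Cgas KO and 34.9-fold in WT), and Rrm2, the small subunit of ribonucleotide reductase (32.2-fold in Cgas KO and 37.2-fold in WT). Of all Cdc6 UMIs, 91.6% in Cgas KO and 87.9% in WT lay in replicating barcodes, and of all Rfc2 UMIs 37.7% in Cgas KO and 35.5% in WT. Dut, Slbp and Pcna, which had the most UMIs, were found in 9.89%, 11.2% and 11.2% of the other Cgas KO barcodes and in 10.5%, 11% and 10.9% of the other WT barcodes.

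Within replicating barcodes, the members also separated by whether mitotic genes were present. Replicating barcodes with 8 or more mitotic genes (357 in Cgas KO, 254 in WT by all 36 members) were set against those with none (366 in Cgas KO, 353 in WT). For each gene both groups were again defined by the other 35 members, so their sizes were smaller or equal. For Rrm2, 331 Cgas KO and 237 WT barcodes had 8 or more mitotic genes. Rrm2 showed the largest ratio of the 36, 24.6 in Cgas KO and 21.9 in WT. Clspn followed at 6.92 in Cgas KO and 8.66 in WT, Tyms, the thymidylate synthase, at 5.85 in Cgas KO and 7.42 in WT, Ccne2, a cyclin E, at 5.64 in Cgas KO and 6.31 in WT, Mcm10 at 4.62 in Cgas KO and 6.39 in WT and Rrm1, the large reductase subunit, at 4.46 in Cgas KO and 4.14 in WT. The opposite was seen for Ung, the uracil DNA glycosylase, with a ratio of 0.147 in Cgas KO and 0.182 in WT. Mcm2 (0.579 in Cgas KO and 0.596 in WT), Mcm4 (0.728 in Cgas KO and 0.683 in WT), Mcm6 (0.66 in Cgas KO and 0.765 in WT) and E2f1 (0.712 in Cgas KO and 0.742 in WT) were also lower in the barcodes with mitotic genes. In all, 21 members in Cgas KO and 21 in WT were at least 1.5-fold higher with mitotic genes, and 3 in Cgas KO and 2 in WT at least 1.5-fold lower. The members named here lay on the same side of 1 in both libraries.

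**Figure D2:**
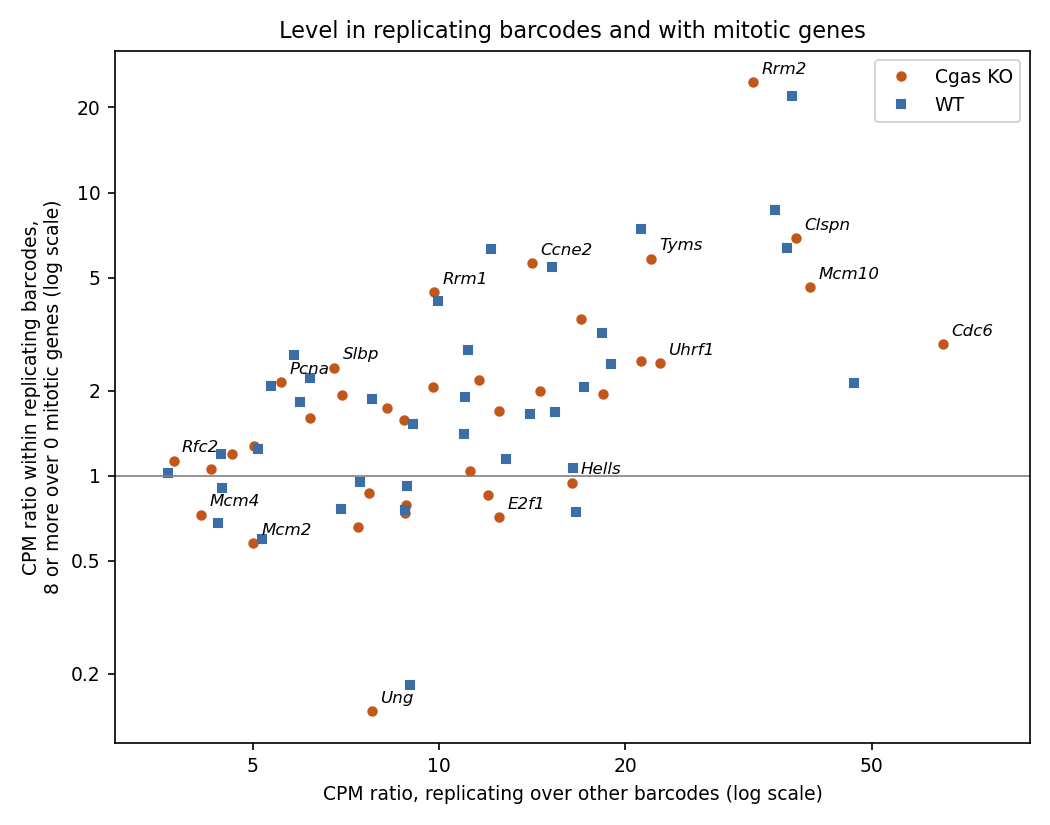
Each of the 36 members by its CPM ratio in replicating over other barcodes (horizontal axis, log scale, replicating defined by the other 35 members) and by its CPM ratio in replicating barcodes with 8 or more over 0 mitotic genes (vertical axis, log scale), for Cgas KO (circles) and WT (squares). Rrm2 lies at the top at 24.6 (Cgas KO) and 21.9 (WT), Ung at the bottom at 0.147 (Cgas KO) and 0.182 (WT), and Cdc6 farthest right.

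The next question was in which thymocyte states the replicating barcodes lie. States were set from genes that are not members, each barcode counted once and in this order: Foxp3+ (regulatory T lineage), Rag1+ (recombinase of double-positive and earlier thymocytes), Cd8 lineage (at least 3 Cd8a and Cd8b1 UMIs, and more than Cd4), Nr4a1/Egr-high (top 10% of barcodes for the immediate TCR-response genes Nr4a1, Egr1, Egr2 and Egr3), S1pr1+ (egress receptor of mature thymocytes) and Itm2a+ S1pr1- (semi-mature, at least 2 Itm2a UMIs). The remaining 2000 Cgas KO and 1633 WT barcodes were unassigned, and 4.85% of them in Cgas KO and 5.27% in WT were replicating. These states rest on 1 to a few UMIs of the genes named and are not clusters.

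Rag1+ barcodes had 91 of 488 Cgas KO barcodes (18.6%, 15.3 to 22.4%) and 62 of 530 WT barcodes (11.7%, 9.09 to 14.7%). Itm2a+ S1pr1- barcodes had 518 of 4544 Cgas KO barcodes (11.4%, 10.5 to 12.4%) and 444 of 3924 WT barcodes (11.3%, 10.3 to 12.3%). In Cgas KO the Rag1+ share was the highest of the 6, while in WT these 2 states had overlapping intervals. Because that state is large, it held 44.1% of all replicating barcodes in Cgas KO and 44.4% in WT, and Rag1+ barcodes only 7.74% in Cgas KO and 6.19% in WT. The Cd8 lineage had 113 of 1573 Cgas KO barcodes (7.18%, 5.96 to 8.57%) and 109 of 1641 WT barcodes (6.64%, 5.49 to 7.96%). S1pr1+ barcodes had 286 of 4121 Cgas KO barcodes (6.94%, 6.18 to 7.76%) and 237 of 3614 WT barcodes (6.56%, 5.77 to 7.41%). Foxp3+ barcodes had 24 of 378 Cgas KO barcodes (6.35%, 4.11 to 9.3%) and 26 of 514 WT barcodes (5.06%, 3.33 to 7.32%). The lowest share was that of Nr4a1/Egr-high barcodes, with 46 of 1277 Cgas KO barcodes (3.6%, 2.65 to 4.78%) and 37 of 1073 WT barcodes (3.45%, 2.44 to 4.72%).

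Set against the mature S1pr1+ state of the same library, the replicating share of Rag1+ barcodes was higher by a factor of 2.69 (2.16 to 3.34) in Cgas KO and 1.78 (1.37 to 2.32) in WT, and that of Itm2a+ S1pr1- barcodes by 1.64 (1.43 to 1.89) in Cgas KO and 1.73 (1.48 to 2.01) in WT. The factor for Nr4a1/Egr-high barcodes was 0.519 (0.383 to 0.704) in Cgas KO and 0.526 (0.374 to 0.739) in WT. The factor for the Cd8 lineage was 1.04 (0.839 to 1.28) in Cgas KO and 1.01 (0.814 to 1.26) in WT, and that for Foxp3+ barcodes 0.915 (0.611 to 1.37) in Cgas KO and 0.771 (0.52 to 1.14) in WT, all with intervals that include 1. States were set on all UMIs of a barcode. With states set on thinned counts, the Nr4a1/Egr-high factor was 0.993 in Cgas KO and 0.884 in WT, while the Rag1+ factor was 2.86 in Cgas KO and 1.68 in WT and the Itm2a+ S1pr1- factor 1.89 in Cgas KO and 2.35 in WT. Under another thinning seed the WT factors were 1.59 for Rag1+ and 1.68 for Itm2a+ S1pr1- barcodes, so the order of these 2 states in WT is not settled.

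**Figure D3:**
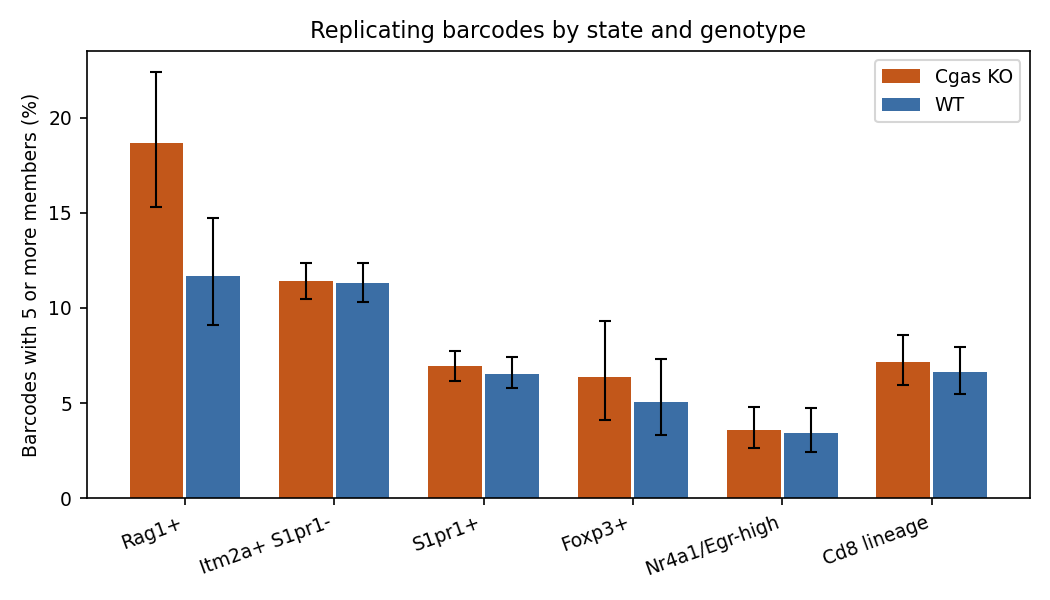
Share of barcodes with 5 or more of the 36 members after thinning (vertical axis, percent) in 6 thymocyte states, Cgas KO left of WT, as bars with exact 95% intervals that cover counting error only. Rag1+ bars reach 18.6% (Cgas KO) and 11.7% (WT), Itm2a+ S1pr1- bars 11.4% (Cgas KO) and 11.3% (WT), and Nr4a1/Egr-high bars are lowest at 3.6% (Cgas KO) and 3.45% (WT).

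Members were called higher most often in Rag1+ barcodes and next in Itm2a+ S1pr1- barcodes. At least 1.5-fold above S1pr1+ in both libraries were 29 of the 36 members in Rag1+ barcodes, where 14% of all 11233 genes measured were so called, and 10 of 36 in Itm2a+ S1pr1- barcodes, where 4.63% of genes were. In Rag1+ barcodes 0 members were 1.5-fold lower (8.31% of genes), and in Itm2a+ S1pr1- barcodes 0 (4.27%). In Nr4a1/Egr-high barcodes 0 were higher (4.07% of genes) and 4 lower (5.14%). In the Cd8 lineage 1 was higher (5.79% of genes) and 1 lower (5.58%), and in Foxp3+ barcodes 0 were higher (3.5%) and 0 lower (2.07%). The median ratio of the members over S1pr1+ was 2.38 in Cgas KO and 1.88 in WT for Rag1+ barcodes, beside 1.10 in Cgas KO and 1.13 in WT for all genes, and 1.43 in Cgas KO and 1.49 in WT for Itm2a+ S1pr1- barcodes, beside 1.06 for all genes in each library. TMM scaling moves Rag1+ over S1pr1+ ratios down by a factor of 1.17 in Cgas KO and 1.18 in WT and gives 19 members higher in Rag1+ barcodes and 6 in Itm2a+ S1pr1- barcodes, and 7 lower in Nr4a1/Egr-high barcodes. The share of all genes called was not taken under this scaling, so these 3 counts have no background beside them. With 1 barcode of each identical TCR set the counts were 29, 10 and 4. Of 34 mitotic genes, 33 were higher in Rag1+ barcodes and 32 lower in Nr4a1/Egr-high barcodes.

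**Figure D4:**
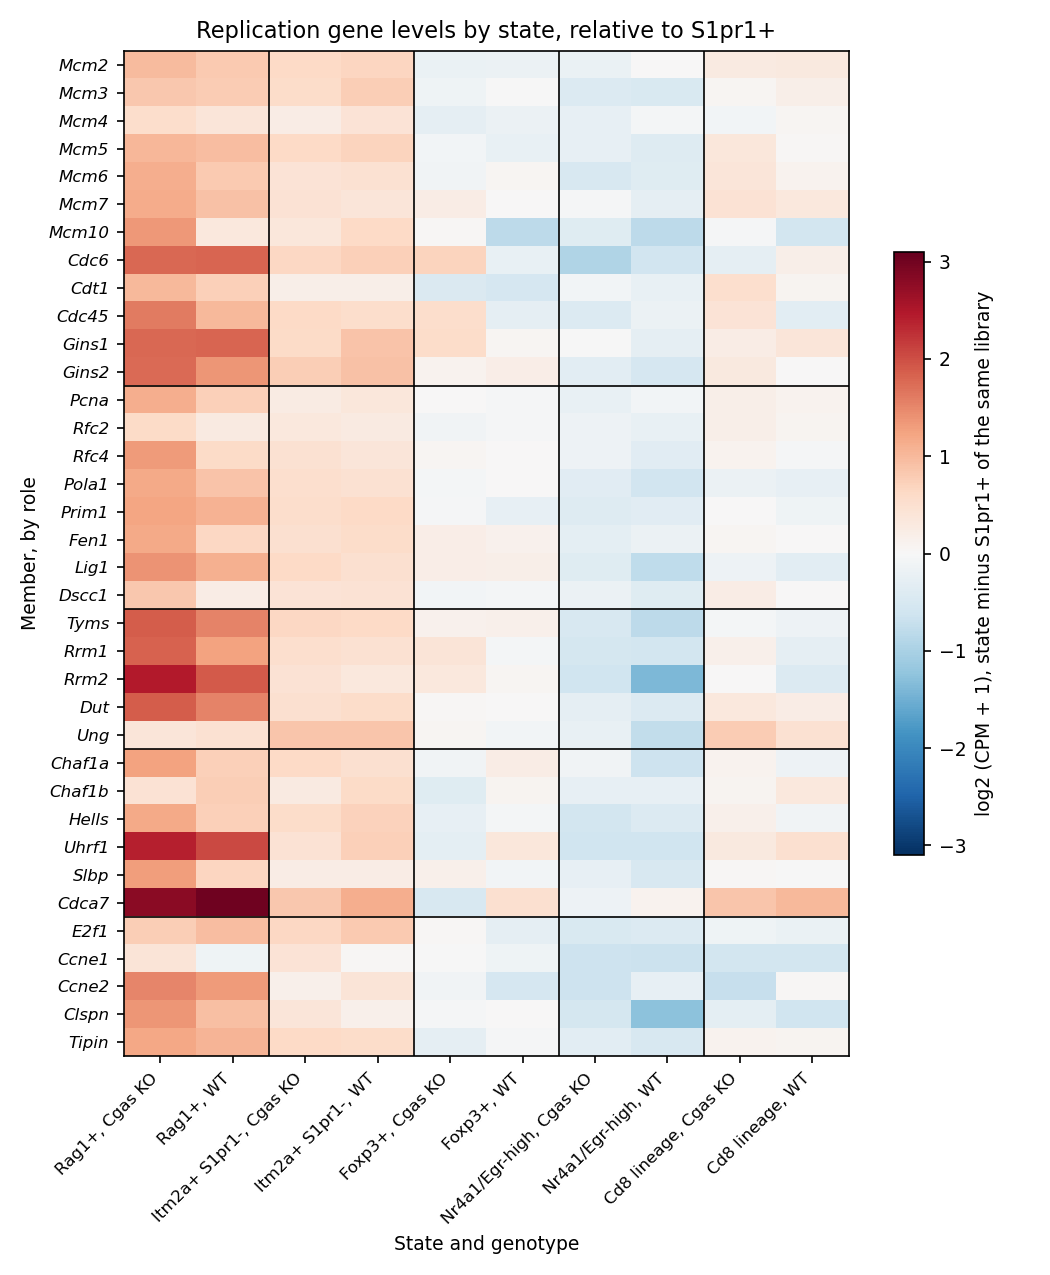
Level of each of the 36 members (rows, grouped by role) in 5 states relative to the S1pr1+ state of the same library, as the difference of log2 (CPM + 1), red for higher and blue for lower, with Cgas KO left of WT in each pair of columns. Rag1+ columns are red for all 36 members in Cgas KO and all but Ccne1 in WT. Itm2a+ S1pr1- columns lie above S1pr1+ for all 36 members, mostly in pale red, and Nr4a1/Egr-high columns are mostly blue.

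Genes of helicase loading and the helicase itself make up 12 of the 36. Mcm6, a subunit of the MCM2-7 ring that unwinds DNA, stood at 84.4 CPM in Cgas KO and 83.3 CPM in WT over all kept barcodes, and at 159.8 CPM in Rag1+ Cgas KO and 128 CPM in Rag1+ WT barcodes. Mcm7, another ring subunit, stood at 76.8 CPM in Cgas KO and 74.7 CPM in WT over all kept barcodes, and at 142 CPM in Rag1+ Cgas KO and 122 CPM in Rag1+ WT barcodes. The ring subunit Mcm4 stood at 70.4 CPM in Cgas KO and 69.3 CPM in WT over all kept barcodes, and Mcm3 at 66.4 CPM in Cgas KO and 65.1 CPM in WT. Against S1pr1+ barcodes, Rag1+ barcodes had 1.5-fold more of 10 of the 12, Mcm4 (1.46 in Cgas KO and 1.31 in WT) and Mcm10 (2.85 in Cgas KO and 1.31 in WT) being the exceptions. The steepest was Gins1, a GINS subunit of the active helicase, with a ratio of 3.9 in Cgas KO and 4.03 in WT, followed by Cdc6 at 3.76 in Cgas KO and 3.93 in WT. Cdc6 was also called lower in Nr4a1/Egr-high barcodes at 0.462 in Cgas KO and 0.611 in WT. The GINS subunit Gins2 had Rag1+ ratios of 3.64 in Cgas KO and 2.77 in WT. The 6 genes Mcm2, Mcm5, Cdc6, Cdc45, Gins1 and Gins2 were called higher in Itm2a+ S1pr1- barcodes. The licensing factor Cdt1, at 36.5 CPM in Cgas KO and 34.5 CPM in WT over all kept barcodes, passed in Rag1+ barcodes and in no other state.

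The 8 genes for polymerase, clamp and joining were led by the sliding clamp. Pcna, which tethers polymerases to DNA, stood at 101 CPM in Cgas KO and 93.1 CPM in WT over all kept barcodes, and at 199 CPM in Rag1+ Cgas KO and 141 CPM in Rag1+ WT barcodes. Rfc2, of the clamp loader, stood at 63.8 CPM in Cgas KO and 62.7 CPM in WT over all kept barcodes, and at 86.6 CPM in Rag1+ Cgas KO and 72.5 CPM in Rag1+ WT barcodes. Fen1, the flap nuclease that trims Okazaki fragments, stood at 36.3 CPM in Cgas KO and 37.1 CPM in WT, and Pola1, the catalytic subunit of the polymerase that starts each strand, at 34.1 CPM in Cgas KO and 29.3 CPM in WT. Rag1+ barcodes had 1.5-fold more of 6 of the 8, but of neither Rfc2 (1.52 in Cgas KO and 1.23 in WT) nor the alternative loader subunit Dscc1 (1.95 in Cgas KO and 1.2 in WT). No gene of this role was called in another state.

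Nucleotide supply had the highest median ratio of the 5 roles in Rag1+ over S1pr1+ barcodes, 3.67 in Cgas KO and 2.92 in WT. Dut, the dUTPase that keeps uracil out of DNA, stood at 126 CPM in Cgas KO and 118 CPM in WT over all kept barcodes, and at 373 CPM in Rag1+ Cgas KO and 279 CPM in Rag1+ WT barcodes. Rrm2, which limits deoxynucleotide synthesis in S phase, stood at 64 CPM in Cgas KO and 56.6 CPM in WT over all kept barcodes, and at 291 CPM in Rag1+ Cgas KO and 199 CPM in Rag1+ WT barcodes. Tyms, which makes thymidylate, stood at 57.9 CPM in Cgas KO and 48.8 CPM in WT over all kept barcodes, and at 173 CPM in Rag1+ Cgas KO and 119 CPM in Rag1+ WT barcodes. Rrm1, its partner being Rrm2, stood at 43.9 CPM in Cgas KO and 39.8 CPM in WT over all kept barcodes, and at 130.0 CPM in Rag1+ Cgas KO and 86.2 CPM in Rag1+ WT barcodes. Relative to S1pr1+, Rrm2 in Rag1+ barcodes was at 5.62 in Cgas KO and 3.81 in WT, and in Nr4a1/Egr-high barcodes at 0.646 in Cgas KO and 0.371 in WT. Ung, which removes uracil from DNA, differed from these, with 1.32 in Cgas KO and 1.42 in WT in Rag1+ barcodes but 1.89 in Cgas KO and 1.88 in WT in Itm2a+ S1pr1- barcodes.

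Chromatin and histone supply held the member with the highest Rag1+ ratio. Cdca7, which recruits the remodeller HELLS to DNA, stood at 39.8 CPM in Cgas KO and 34.8 CPM in WT over all kept barcodes, and at 182 CPM in Rag1+ Cgas KO and 156 CPM in Rag1+ WT barcodes. Its ratio over S1pr1+ was 7.23 in Cgas KO and 8.42 in WT, the highest of the 36 in both libraries, and it was the 1 member called higher in the Cd8 lineage (1.86 in Cgas KO and 2.05 in WT). Uhrf1, which brings the maintenance methyltransferase to new DNA, stood at 29 CPM in Cgas KO and 26.8 CPM in WT over all kept barcodes, and at 127 CPM in Rag1+ Cgas KO and 82.2 CPM in Rag1+ WT barcodes. Slbp, which binds the stem-loop of histone mRNAs, stood at 114 CPM in Cgas KO and 103 CPM in WT over all kept barcodes, and at 258 CPM in Rag1+ Cgas KO and 157 CPM in Rag1+ WT barcodes. Hells itself stood at 39.7 CPM in Cgas KO and 33.5 CPM in WT over all kept barcodes. Chaf1b, of the histone chaperone that follows the fork, was called in no state.

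Of the 5 genes of entry control and checkpoint, Tipin, which protects stalled forks, stood at 45.1 CPM in Cgas KO and 41.3 CPM in WT and E2f1, the transcription factor, at 17.1 CPM in Cgas KO and 15.5 CPM in WT over all kept barcodes. Ccne1, cyclin E1, was the 1 member below S1pr1+ in Rag1+ WT barcodes (1.37 in Cgas KO and 0.901 in WT), and it was called lower in the Cd8 lineage (0.628 in Cgas KO and 0.636 in WT) and in Nr4a1/Egr-high barcodes (0.603 in Cgas KO and 0.581 in WT). Ccne2, which encodes the related cyclin E2, was called higher in Rag1+ barcodes with 21.3 CPM in Cgas KO and 14.1 CPM in WT.

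Between genotypes the replicating share stood apart in 1 of the 6 states. In Rag1+ barcodes the ratio, Cgas KO over WT, was 1.59 (1.18 to 2.15). In the other 5 states the ratios lay between 1.01 and 1.26, each with an interval that includes 1, and whether the Rag1+ ratio differs from theirs was not tested. The interval was 0.894 to 1.14 in Itm2a+ S1pr1- barcodes and 0.896 to 1.25 in S1pr1+ barcodes, and at its widest 0.732 to 2.15 in Foxp3+ barcodes. With 1 barcode of each identical TCR set the Rag1+ shares were 18.6% in Cgas KO and 11.7% in WT (ratio 1.59, 1.18 to 2.14). That setting left 485 of the 488 Cgas KO and all 530 WT Rag1+ barcodes, so it could change little. At 8 or more members the Rag1+ shares were 13.3% in Cgas KO and 7.55% in WT (ratio 1.76, 1.21 to 2.57). All kept barcodes other than Rag1+ gave 7.80% in Cgas KO and 7.57% in WT (ratio 1.03, 0.947 to 1.12).

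Definitions of the Rag1+ state that were added after the data had been seen gave ratios on the same side of 1. With at least 2 Rag1 UMIs the shares were 17.7% in Cgas KO and 10.8% in WT (ratio 1.64, 1.12 to 2.4). With exactly 1 beta chain they were 20.1% in Cgas KO and 12.4% in WT (ratio 1.61, 1.15 to 2.27). Without barcodes that held a UMI of Ptcra, the pre-TCR alpha gene of earlier thymocytes, they were 11.3% in Cgas KO and 7.74% in WT (ratio 1.46, 0.955 to 2.23), an interval that includes 1. It also included 1 at 3 or more members (ratio 1.2, 0.984 to 1.46) and without thinning (1.19, 0.978 to 1.44). Other measures moved in the same barcodes. Median depth was 4032 UMIs in Cgas KO and 3488 in WT, at least 2 beta chains were seen in 17.4% in Cgas KO and 14.9% in WT, and no beta chain in 11.1% in Cgas KO and 15.3% in WT. The 6 genes of early thymocytes were all detected in both libraries and summed to 3639 CPM in Cgas KO and 3561 CPM in WT. The 6 macrophage genes summed to 1.49 CPM in Cgas KO and 17.8 CPM in WT, with 3 of the 6 detected in Cgas KO and 5 in WT and with Csf1r at 0 in both. Ptcra stood at 79.2 CPM in Cgas KO and 60.7 CPM in WT, Itm2a at 353 CPM in Cgas KO and 472 CPM in WT, and Nr4a1 at 328 CPM in Cgas KO and 218 CPM in WT. The part of these measures in the difference was not tested.

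Member levels within Rag1+ barcodes moved the same way. Of 31 members measured (at least 100 UMIs in both libraries together), 21 passed 1.2-fold upward in Cgas KO, as 12.9% of all genes did, and 0 were lower, as were 14.4% of genes. With 1 barcode of each identical TCR set, which left 485 of the 488 Cgas KO and all 530 WT barcodes, the counts were again 21 and 0. Mcm10, Dscc1, Ung, Ccne1 and Ccne2 had too few UMIs. The median log2 ratio of the measured members was 0.33, beside -0.01 for all genes, and 30 of the 31 ratios lay above 1. Slbp had the highest ratio, at 258 CPM in Cgas KO and 157 CPM in WT (ratio 1.64, 1.46 to 1.85). Clspn stood at 63.9 CPM in Cgas KO and 38.9 CPM in WT (1.64, 1.29 to 2.1), Rfc4, of the clamp loader, at 65 CPM in Cgas KO and 39.9 CPM in WT (1.63, 1.28 to 2.07) and Hells at 76.6 CPM in Cgas KO and 47.7 CPM in WT (1.61, 1.29 to 2.0). These 4 lay at or above 1.6-fold. Uhrf1 (1.54, 1.31 to 1.83), Rrm1 (1.51, 1.28 to 1.78), Rrm2 (1.46, 1.31 to 1.63), Tyms (1.45, 1.26 to 1.67), Cdc45, the helicase cofactor (1.43, 1.01 to 2.04), Pcna (1.41, 1.24 to 1.61), Fen1 (1.41, 1.13 to 1.77) and Pola1 (1.4, 1.12 to 1.75) came next. The largest histone chaperone subunit, Chaf1a (1.38, 0.951 to 2.01), Dut (1.34, 1.22 to 1.47), the primase Prim1 (1.32, 0.99 to 1.77), Gins2 (1.26, 0.914 to 1.74), the DNA ligase Lig1 (1.26, 1.02 to 1.56), Mcm6 (1.25, 1.08 to 1.44), Cdc6 (1.24, 0.887 to 1.73), Cdt1 (1.22, 0.977 to 1.51) and Mcm4 (1.21, 1.02 to 1.45) completed the 21. The intervals of 16 of the 21 lay wholly above 1. By role, 6 of 11 measured helicase genes, 6 of 7 polymerase and clamp genes, 4 of 4 nucleotide genes, 4 of 6 chromatin genes and 1 of 3 entry and checkpoint genes were called. The uncalled chromatin genes were Cdca7 (1.17, 1.02 to 1.33) and Chaf1b (0.954, 0.704 to 1.29).

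Levels and shares were read from the same UMIs and are not independent. Among replicating Rag1+ barcodes alone (91 in Cgas KO, 62 in WT), the 36 genes summed to 7783 CPM in Cgas KO and 7462 CPM in WT (ratio 1.04, 1.01 to 1.08), and 2 of 30 measured members were called higher, where 13.1% of genes were, and 3 lower, where 16.3% were. Among Rag1+ barcodes that were not replicating they summed to 984 CPM in Cgas KO and 791 CPM in WT (ratio 1.24, 1.16 to 1.33). In counts thinned to 2000 UMIs per barcode, 12 of 16 measured members were higher in Rag1+ barcodes, where 12.7% of genes were, and 1, Mcm5, lower (0.833, 0.554 to 1.24), where 14.7% were, with a ratio of summed levels of 1.4 (1.31 to 1.49). At 1.5-fold, 6 of the 31 remained called, and the share of all genes past that limit was not taken. Of 49 other replication genes, 26 of 42 measured were higher in Rag1+ barcodes and 2 lower. Of the 34 mitotic genes, 31 of 33 measured were higher. At least 3 mitotic genes were seen in 20.7% of Rag1+ Cgas KO and 12.8% of Rag1+ WT barcodes (ratio 1.61, 1.22 to 2.14). In Rag1+ barcodes that were not replicating, mitotic genes summed to 2358 CPM in Cgas KO and 1137 CPM in WT (ratio 2.07, 1.97 to 2.18). Among replicating Rag1+ barcodes they went the other way, at 7170 CPM in Cgas KO and 7639 CPM in WT (ratio 0.939, 0.906 to 0.972).

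**Figure D5:**
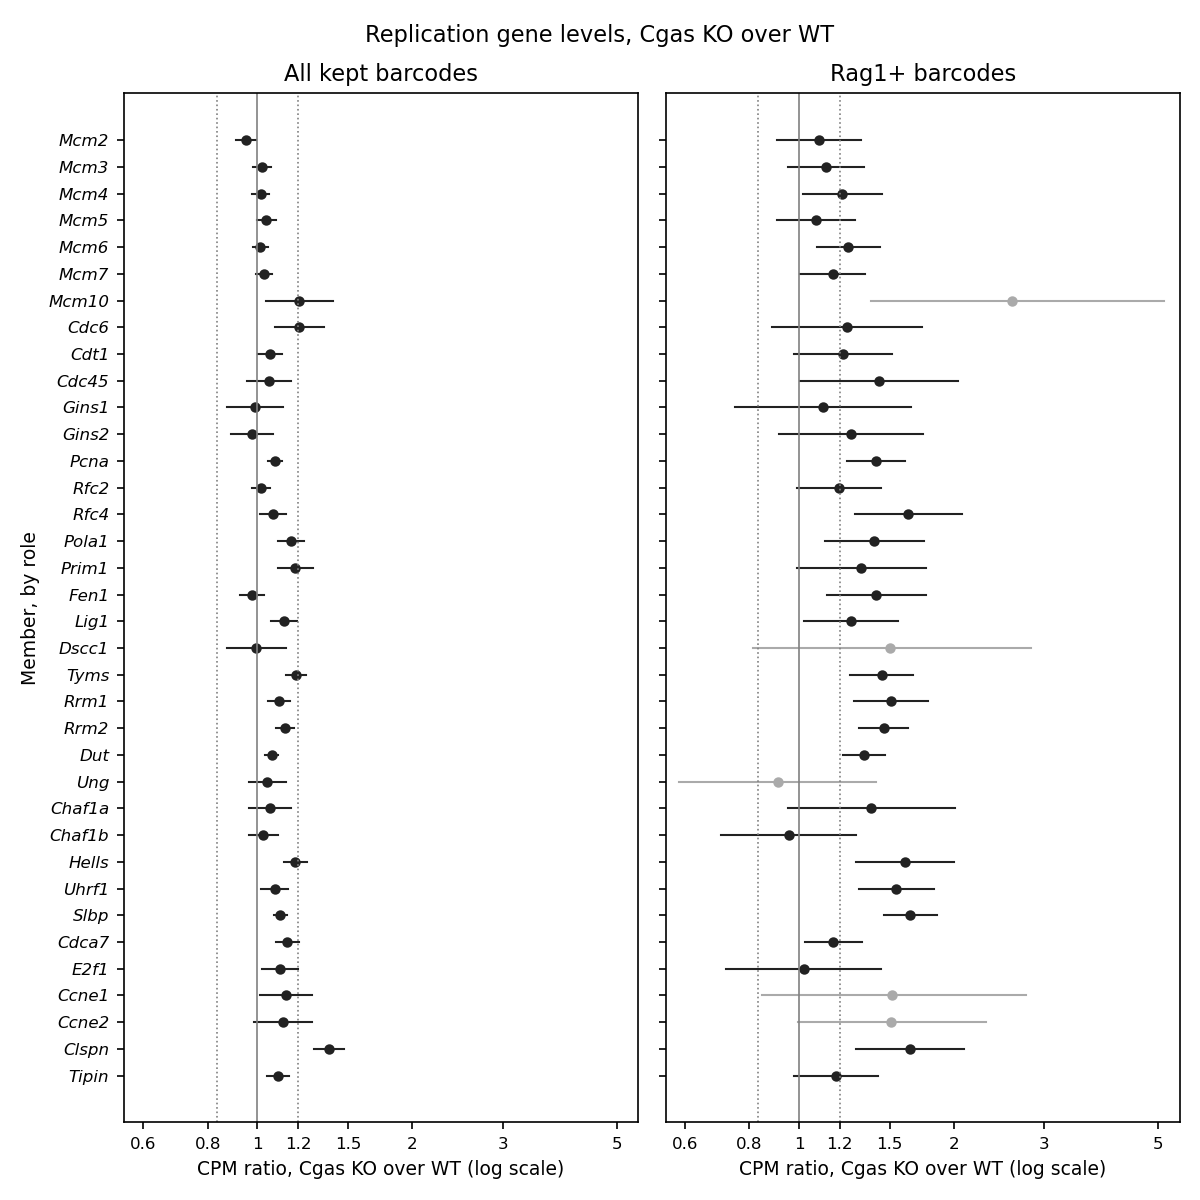
CPM ratio of each of the 36 members, Cgas KO over WT, on a log scale with exact 95% intervals that cover counting error only, over all kept barcodes (left) and in Rag1+ barcodes (right), members in rows by role and those with under 100 UMIs in both libraries together in grey. Dotted lines mark 1.2-fold in either direction. Over all kept barcodes Clspn stands out at 1.38, and in Rag1+ barcodes most points lie right of the 1.2-fold line, Slbp at 1.64.

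Over all kept barcodes the genotypes were closer. All 36 members were measured, 31 ratios lay above 1, and the median log2 ratio was 0.10, beside 0.00 for all genes. Only 3 members were at least 1.2-fold higher, where 6.07% of all genes were, and 0 were lower, where 5.83% were. By that count the share of members called was near the background. The intervals of 20 of the 36 lay wholly above 1 and 1 wholly below, and the summed ratio of the 36 genes was 1.07 (1.06 to 1.08). Mcm10 stood at 5.05 CPM in Cgas KO and 4.19 CPM in WT (ratio 1.21, 1.04 to 1.41) and Cdc6 at 9.72 CPM in Cgas KO and 8.07 CPM in WT (1.21, 1.08 to 1.34). Counting 1 barcode per identical TCR set, both fell under the limit, Mcm10 at 1.19 (1.02 to 1.39) and Cdc6 at 1.17 (1.05 to 1.31). The ratio was below 1 for Mcm2 (0.949, 0.908 to 0.992), Gins1, Gins2, Fen1 and Dscc1, between 0.949 and 0.994. The MCM ring genes as a whole lay between 0.949 and 1.04, and the nucleotide genes between 1.04 for Ung and 1.19 for Tyms. Of the 34 mitotic genes, 20 were at least 1.2-fold higher and 0 lower.

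Clspn was the member that differed most. It encodes claspin, which passes the replication checkpoint signal from ATR to CHK1 at the fork, and lies at chr4:126556957-126594533 (GRCm38.p6). It had 1962 UMIs in Cgas KO and 1413 in WT, or 26 CPM in Cgas KO and 18.8 CPM in WT (ratio 1.38, 1.29 to 1.48). Its ratio with 1 barcode per identical TCR set was 1.35 (1.26 to 1.45). It was higher in Cgas KO in each of the 6 states, by 1.64 (1.29 to 2.1) in Rag1+, 1.41 (1.26 to 1.58) in Itm2a+ S1pr1-, 1.21 (1.06 to 1.38) in S1pr1+, 1.54 (1.21 to 1.95) in Cd8 lineage and 2.13 (1.47 to 3.12) in Nr4a1/Egr-high barcodes, and by 1.17 (0.795 to 1.72) in Foxp3+ barcodes, the 1 interval of the 6 that includes 1. Measured genes beside it on the chromosome were closer to 1, namely Ago3 (1.01, 0.968 to 1.06), Ago1 (0.934, 0.877 to 0.995), Psmb2 (1.03, 1.01 to 1.06), Ncdn (0.96, 0.886 to 1.04) and AU040320 (0.968, 0.914 to 1.03). After thinning, a Clspn UMI was found in 23.8% of Cgas KO and 18.2% of WT barcodes that were replicating by the other 35 members. It was found in 0.514% of other Cgas KO and 0.402% of other WT barcodes.

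In the remaining states the count of members 1.2-fold higher varied. In the Cd8 lineage 15 of 33 measured members were higher, where 8.23% of genes were, and 0 lower, where 6.48% were, with 12 of the 15 intervals above 1. Cdc45 (1.63, 1.2 to 2.22), Clspn, Hells (1.44, 1.22 to 1.7), Rrm1 (1.38, 1.17 to 1.61), Cdt1 (1.37, 1.18 to 1.58) and Rrm2 (1.36, 1.19 to 1.57) were the highest of these. The other 9 were Prim1 (1.34, 1.05 to 1.71), Mcm5 (1.28, 1.13 to 1.45), E2f1 (1.25, 0.952 to 1.64), Tyms (1.24, 1.07 to 1.43), Ung (1.23, 0.992 to 1.53), Cdca7 (1.23, 1.07 to 1.42), Mcm6 (1.21, 1.09 to 1.33), Pola1 (1.21, 1.0 to 1.46) and Gins2 (1.2, 0.893 to 1.61). In counts thinned to 2000 UMIs 7 were higher (9.91% of genes) and 0 lower (8.82%). With 1 barcode of each identical TCR set 13 were higher and 0 lower. The replicating share in that state did not stand apart (1.08, 0.839 to 1.39), while the share with at least 3 mitotic genes was 5.02% in Cgas KO and 3.17% in WT (1.58, 1.12 to 2.23) and 30 of 31 measured mitotic genes were higher. The 6 early thymocyte genes, all detected in both libraries, summed to 1120 CPM in Cgas KO and 982 CPM in WT, mostly Cd8b1, a gene of the state rule, at 878 CPM in Cgas KO and 784 CPM in WT. Arpp21 stood at 87.8 CPM in Cgas KO and 64.9 CPM in WT, and Ptcra at 5.83 CPM in Cgas KO and 3.93 CPM in WT. The part of these genes in the members' ratios was not tested. How much of either comes from doublets was not tested, and at least 2 beta chains were seen in 13.3% of these Cgas KO and 11.6% of these WT barcodes.

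In Nr4a1/Egr-high barcodes 7 of 26 measured members were higher (7.34% of genes) and 1, Mcm2 (0.829, 0.687 to 1.0), was lower (8.01%). With 1 barcode of each identical TCR set the counts were 8 higher and 0 lower. The 7 were Clspn, Rrm2 (1.72, 1.36 to 2.19), Tyms (1.41, 1.13 to 1.78), Lig1 (1.4, 1.05 to 1.87), Pola1 (1.37, 1.05 to 1.79), Slbp (1.26, 1.11 to 1.44) and Uhrf1 (1.2, 0.87 to 1.67). In S1pr1+ barcodes 6 of 36 were higher (5.87% of genes) and 0 lower (5.3%), namely Cdca7 (1.36, 1.19 to 1.55), Ccne2 (1.34, 1.04 to 1.73), Cdc6 (1.29, 1.02 to 1.64), Clspn, Uhrf1 (1.21, 1.06 to 1.38) and Prim1 (1.2, 1.03 to 1.41). The Itm2a+ S1pr1- state, which holds the most replicating barcodes, showed the least, with Ccne1 (1.36, 1.13 to 1.64) and Clspn as 2 of 36 higher (6.01% of genes) and 0 lower (4.93%). There 11 of the 36 intervals lay wholly above 1 and 2 wholly below. The summed ratio was 1.03 (1.01 to 1.04) for the 36 genes and 0.967 (0.945 to 0.990) for the 12 helicase genes. With 1 barcode of each identical TCR set, 4 were higher in S1pr1+ and 2 in Itm2a+ S1pr1- barcodes, with 0 lower in both, and 3 were higher and 2 lower in Foxp3+ barcodes. In Foxp3+ barcodes, of which there were 378 in Cgas KO and 514 in WT, 24 members were measured. There Rrm1 (1.39, 1.05 to 1.83) and Slbp (1.28, 1.08 to 1.52) were higher (9.76% of genes) and Cdca7 (0.669, 0.443 to 0.991) and Uhrf1 (0.747, 0.497 to 1.1) lower (10.9%), so both counts were near the background. Dendritic cell genes summed to 46.3 CPM in these Cgas KO barcodes, with 5 of 8 detected, and to 206 CPM in these WT barcodes, with 6 of 8 detected. B cell genes summed to 7.16 CPM in Cgas KO, with 2 of 5 detected, and to 19.1 CPM in WT, with 5 of 5 detected. Siglech and Xcr1, which mark dendritic cells, were at 0 in both. The part of these genes in the Foxp3+ ratios was not tested. Among unassigned barcodes 5 of 30 were higher (6.46% of genes), Hells, Lig1, Clspn, Cdca7 and Gins2, and 0 lower (7.48%). The 12 genes associated with quiescence, such as Klf2, Btg1 and Foxp1, summed to 2906 CPM in replicating and 4464 CPM in other Cgas KO barcodes, and to 2827 CPM in replicating and 4216 CPM in other WT barcodes. Not each of the 12 followed the sum, with Cdkn2d at 166 CPM in replicating and 122 CPM in other Cgas KO barcodes. In Rag1+ barcodes the sum of the 12 was 3427 CPM in Cgas KO and 3532 CPM in WT (ratio 0.970, 0.943 to 0.998). Of 11 measured there, 5 ratios lay above 1, such as Btg2 at 1.04 (0.966 to 1.11). Intervals lay below 1 for Btg1 (0.939, 0.884 to 0.996), Foxp1 (0.918, 0.859 to 0.980) and Slfn2 (0.878, 0.790 to 0.977). Cdkn1a, at 27 UMIs in Cgas KO and 10 in WT too low to be measured, had a ratio of 3.01 (1.41 to 6.96). Of the 12, 1 was 1.2-fold higher and 0 lower over all kept barcodes, and in Rag1+ barcodes 0 of 11 measured were called in either direction.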

How the data were processed

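Gene counts of single-cell RNA libraries from sorted thymocytes, 3' by the protocol, were analysed as deposited, with the contig tables of the matched TCR libraries. The deposited matrices hold UMI counts per gene and barcode, unfiltered for cells, made by the authors with Cell Ranger. Per the submitters' processing notes the version was 7.0, with Seurat 5.1.0 and the mm10 genome also named, whereas the matrix header gives 8.0.1. The matrices hold 586687 barcodes in Cgas KO and 588428 in WT, and kept barcodes 75605391 UMIs in Cgas KO and 75001049 in WT. UMIs of a cell are not independent draws, so intervals cover counting error only.

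Kept barcodes, states, thinning (random seed 1), the count of 5 members and the fold limits (1.2 between genotypes at 100 or more UMIs in both libraries together, 1.5 between states) are as given above. The immediate-response score was summed per 10000 UMIs and its top 10% taken over both libraries. Shares have exact Clopper-Pearson 95% intervals, CPM exact Poisson intervals, CPM ratios exact conditional intervals and share ratios log-scale intervals. Log2 ratios use 1 CPM added. No test was made, since there is 1 library per genotype. Free RNA counts were pooled over barcodes with at least 20 and fewer than 200 UMIs. Computation used Python 3.11.15 with scipy 1.17.1, numpy 2.4.6, matplotlib 3.10.9 and pandas 2.3.3, and in R 4.3.3 edgeR 4.0.16 and DESeq2 1.42.0 for scaling factors alone. The functions were tested on simulated data.

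The members, gene lists and limits were chosen with earlier results of these data known. Named genes are up to 4 members with the most UMIs in each role and each member past a fold limit, and others named were chosen after their values were seen. Alternatives changed the thinning, member count, depth and mitochondrial limits, doublet treatment, state rules, scaling, count minimum and fold. Other Rag1+ definitions and the use of 1 barcode per identical TCR set were chosen after seeing the data.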

Additional observations from a re-analysis of the deposited data

Results flagged for a closer look

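Cdca7, the partner of HELLS, had opposite genotype ratios in different states. Its CPM ratio, Cgas KO over WT, was 0.669 (0.443 to 0.991) in Foxp3+ barcodes, from 37 UMIs in Cgas KO and 90 in WT. It was 1.17 (1.02 to 1.33) in Rag1+, 1.23 (1.07 to 1.42) in Cd8 lineage, 1.36 (1.19 to 1.55) in S1pr1+ and 1.11 (1.02 to 1.2) in Itm2a+ S1pr1- barcodes. In Foxp3+ barcodes 2 of 24 measured members were lower, where 10.9% of all genes were, and dendritic cell genes summed to 46.3 CPM in Cgas KO and 206 CPM in WT, the part of which was not tested. Every one of these states has 1 library per genotype, and the difference between states was not tested.

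Identical sets of TCR contigs were shared by barcodes in 583 sets in Cgas KO and 17 sets in WT. Of the barcodes in such sets, 12.3% in Cgas KO and 11.4% in WT were replicating, against 7.8% of other Cgas KO and 7.73% of other WT barcodes with both chains.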

How the results depend on the processing

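Each alternative set at the outset was run. Among the ratios followed over the alternatives, only the Rag1+ share ratio and Clspn had a reported interval that left out 1. Neither moved to the other side of 1. Share ratios whose reported interval includes 1 did change sides, some with intervals wholly below 1. In other alternatives such ratios had intervals wholly above 1, as given next. The ratio of replicating shares over all kept barcodes, 1.06, was 0.93 without thinning, 1.17 at 1000 UMIs and 1.16 at 8 or more members. Over 10 alternatives it lay above 1 in 9. The interval lay wholly above 1 in 5 of the 10 and wholly below 1 in 1. The Rag1+ ratio lay between 1.19 and 1.81 over 16 alternatives, with an interval above 1 in 13 of them. The number of states whose interval left out 1, 1 in the reported setting, was 2 without thinning (Foxp3+ at 0.750 and Nr4a1/Egr-high at 0.784), 2 at 1000 UMIs (Rag1+, and S1pr1+ at 1.36), 0 at 3 or more members, 2 with overlapping states (Rag1+, and Cd8 lineage at 1.22) and 2 with states set on thinned counts (Rag1+ at 1.81, and Itm2a+ S1pr1- at 0.858). At 1000 UMIs the Cd8 lineage ratio was 1.43. The counts of members higher in Rag1+, higher in Itm2a+ S1pr1- and lower in Nr4a1/Egr-high barcodes, 29, 10 and 4, were 19, 6 and 7 under both TMM and median-of-ratios factors, and the first and second were 14 and 6 in thinned counts. The 3 members higher in Cgas KO over all kept barcodes numbered 6 in thinned counts, 6 at 3000 or more UMIs per barcode, 1 with 1 barcode per identical TCR set and 0 at 1.5-fold. In Rag1+ barcodes, the 21 higher were 12, with 1 lower, in thinned counts, where fewer members reached 100 UMIs, and 6 at 1.5-fold. Median co-detection was 2.93 in Cgas KO and 2.83 in WT at 1000 UMIs, 3.33 in Cgas KO and 3.24 in WT for pairs with at least 2 expected, 3.07 in Cgas KO under another seed and 2.97 in WT without barcodes with 2 or more beta chains. Clspn over all kept barcodes stayed between 1.32 and 1.45 in 8 alternatives. Among these alternatives, the share of all genes called was taken only for thinned counts of Rag1+ and Cd8 lineage barcodes between genotypes. The other counts of members therefore have no background beside them. The causes of these changes were not tested. Depth leaves 5 members unmeasured in Rag1+ barcodes. No paired analysis was possible because there is 1 library per genotype.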

Other observations

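Transcripts of Cgas, the targeted gene, lay largely in replicating barcodes. Cgas stood at 13.5 CPM in replicating and 1.14 CPM in other Cgas KO barcodes (147 and 74 UMIs), and at 18.7 CPM in replicating and 2.27 CPM in other WT barcodes (190 and 147 UMIs). Cgas is not one of the 36 genes that define replicating barcodes.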
